A study of Mus musculus with 17 samples.

Results

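Expression of 7 transcription factor genes was examined in CD8+ T cells of mouse brain and blood: Ikzf1, Ikzf2 and Ikzf3 of the Ikaros family, and Ets1, Fli1, Elf1 and Elf4 of the ETS family. They were taken by gene symbol from the deposited count table and are 7 of its 48709 genes. The symbols were chosen by their family and on their measured levels in these same libraries, which were already known, so levels and changes below are a description, and each adjusted p-value only gives a gene's place in a fit across all tested genes. All 7 had counts, and 6 of them were among the 2366 genes that passed the expression filter. Elf4 did not pass it, and its changes come from a fit with a lower filter.

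The libraries are bulk RNA sequencing of CD8+ T cells, the lineage of cytotoxic T lymphocytes, and fall into 4 groups: 4 from brain and 3 from blood of APP-PS1 mice, and 5 from brain and 5 from blood of wild type (WT) mice. APP-PS1 mice (APP Swedish PS1 dE9) carry the transgenes Mo/HuAPP695swe, a chimeric amyloid precursor protein of mouse and human sequence, and PS1-dE9, a mutant form of human presenilin 1. Both are driven in neurons of the central nervous system by the prion protein promoter, and the mice model the amyloid deposition of Alzheimer's disease. WT mice served as controls. The design text calls the mice aged, with no age stated. Brains were homogenized and freed of myelin on a Percoll gradient, whereas blood went through red cell lysis, so tissue and preparation cannot be told apart. All WT libraries came from females, against 3 males and 1 female in APP-PS1 brain and 2 males and 1 female in APP-PS1 blood, so strain and sex largely coincided. The labels do not state that the replicates of a group are separate mice, so a p-value weighs a difference against the spread of these libraries only, part of which may be technical.

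Ikaros family proteins are zinc finger factors of lymphocytes. Their N-terminal fingers bind DNA, their C-terminal fingers pair the family's proteins with one another, and they bring chromatin remodelling and histone deacetylase complexes to genes. ETS proteins share a DNA-binding domain that recognises a GGAA core. In T cells, Ets1 is abundant at rest and is known in mice to be needed for survival and for full CD8 development, often acting with Runx proteins, while Fli1, Elf1 and Elf4 bind closely related sequences.

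Since the genes of a family resemble each other, it was examined how much sequence their transcripts share. Of 103 pairs formed by a member and a relative of its family, 2 shared any 25-base window between their longest coding transcripts. The closest stretches of coding sequence in 3 member pairs are given below from the GENCODE annotation of GRCm38, with the identical run in capitals and 15 bases on either side in lower case. The first and last pair fall in the ETS domain and the middle pair in the C-terminal fingers.
Elf1 (chromosome 14): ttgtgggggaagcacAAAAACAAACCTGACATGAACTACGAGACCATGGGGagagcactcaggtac
Elf4 (chromosome X): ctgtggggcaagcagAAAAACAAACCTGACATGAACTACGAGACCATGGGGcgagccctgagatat
Ikzf1 (chromosome 11): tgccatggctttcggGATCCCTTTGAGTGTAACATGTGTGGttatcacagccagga
Ikzf3 (chromosome 11): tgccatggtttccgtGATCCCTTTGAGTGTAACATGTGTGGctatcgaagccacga
Ets1 (chromosome 9): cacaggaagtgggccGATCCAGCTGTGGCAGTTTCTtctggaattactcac
Fli1 (chromosome 9): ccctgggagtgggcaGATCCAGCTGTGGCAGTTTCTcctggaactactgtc
The run was 36 bases in Elf1 and Elf4, 26 bases in Ikzf1 and Ikzf3, and 21 bases in Ets1 and Fli1. For Ets1 and Fli1, 0 of the 5056 windows of 25 bases in the Ets1 transcript occurred in that of Fli1. The overlap with other genes was small except at Elf1, which shares its locus with the oppositely oriented Wbp4. Wbp4 had 96 counts and Elf1 had 292 counts over the 17 libraries, and without a stated strand setting their reads cannot be told apart where the genes overlap.

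The libraries were shallow, with totals between 27646 and 214670 counts, and APP-PS1 blood (39055 to 46336) lay below WT blood (62604 to 214670). CD8 T cell identity held: 10 of 10 listed markers were detected in every group, their sum lay between 7856 and 12842 CPM (counts scaled to the library total), and Cd4 and Foxp3 had 0 counts throughout. The CD8 marker sum was 9671 to 11359 CPM in APP-PS1 brain and 7856 to 9148 CPM in APP-PS1 blood. In WT it was 9944 to 12842 CPM in brain and 8794 to 11088 CPM in blood. Red cell markers differed by tissue, with sums of 36.2 to 368 CPM in APP-PS1 brain against 2970 to 8071 CPM in APP-PS1 blood, and 156 to 873 CPM in WT brain against 2152 to 9967 CPM in WT blood. Even the highest of these sums is below 1% of a library. APP-PS1 brain replicate 1 and APP-PS1 blood replicate 1 had the lowest mean correlations with the other libraries at equal depth, 0.690 and 0.701. Some of the results that rest on them are also given without them. Sums over markers of other cells were low: they reached 597 CPM for B cells, 467 for natural killer cells, 332 for monocytes and microglia, 196 for neural cells and 151 for platelets, and at most 25.6 for endothelial cells and neutrophils. B cell sums were 40.8 to 97.7 CPM in WT brain against 128 to 459 CPM in WT blood. In APP-PS1 they were 107 to 597 CPM in brain against 170 to 345 CPM in blood. The part of these other cells in the results was not tested.

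Ets1 was the most abundant of the 7 genes in counts and was lower in brain than in blood. Summed over the 17 libraries it had 1346 counts, against 642 for Fli1, 292 for Elf1, 264 for Ikzf3, 194 for Ikzf1, 113 for Ikzf2 and 66 for Elf4. In APP-PS1 brain the libraries had 760, 667, 516 and 493 CPM of Ets1. In APP-PS1 blood they had 1511, 734 and 1800 CPM. These groups overlapped through a single library, blood replicate 2, whose 734 CPM lay under the 760 CPM of brain replicate 1. In WT brain Ets1 stood at 721, 753, 860, 546 and 563 CPM. In WT blood it stood at 885, 1392, 1527, 1054 and 874 CPM. All 5 WT brain libraries were therefore below all 5 WT blood libraries, a pattern met by 1.14% of all tested genes, although the lowest blood value (874) and the highest brain value (860) nearly touched.

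**Figure D1:**
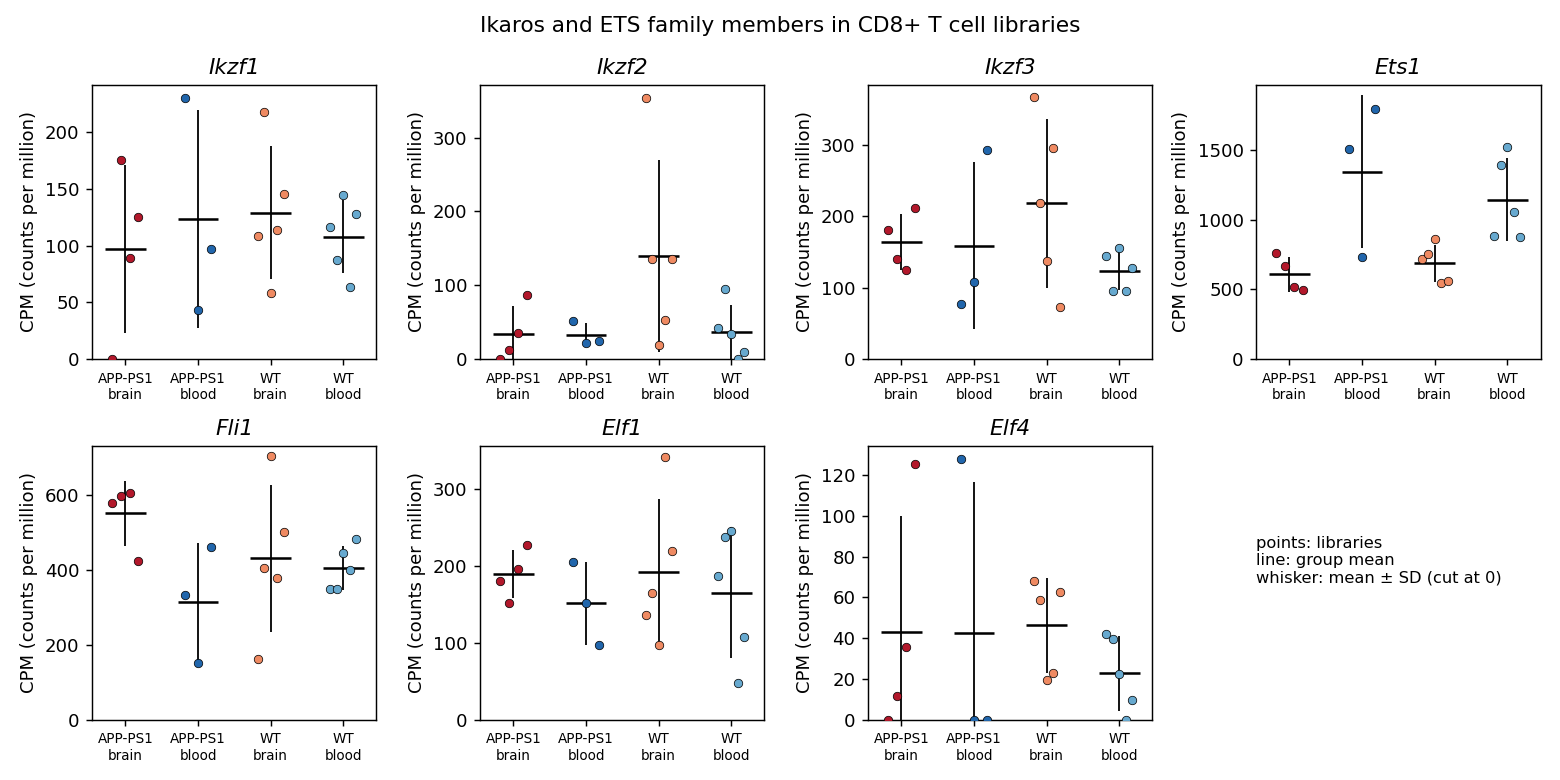
Level of each of the 7 genes in CPM, 1 point per library, for APP-PS1 brain, APP-PS1 blood, WT brain and WT blood. Lines are group means and whiskers 1 SD, cut at 0. The brain points of Ets1 lie together at 493 to 860 CPM, under every WT blood point. In APP-PS1 the brain and blood points of Ets1 overlap, and the other genes overlap in every comparison.

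Group means of Ets1 were 609 ± 127 CPM in APP-PS1 brain (SD, n = 4) and 1348 ± 552 CPM in APP-PS1 blood (SD, n = 3). They were 689 ± 133 CPM in WT brain and 1147 ± 298 CPM in WT blood (SD, n = 5 each). Averaged over both strains, Ets1 fell in brain relative to blood, by -0.99 ± 0.20 on the log2 scale (SE; edgeR adjusted p = 0.000731), the 17th smallest p of 2366. It was the 1 member called in that contrast at an adjusted p under 0.05; the contrast uses the same libraries as the comparisons within each strain. Over all tested genes 2.62% were called in it, and 1.35% in the lower direction. Leaving out each library in turn kept this between -1.13 and -0.84, with adjusted p-values from 0.000219 to 0.0173, and without the 2 libraries that stood apart it was -1.01 (adjusted p = 0.00227). In bulk libraries, fewer cells with Ets1 RNA and less of it per cell cannot be told apart.

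Within each strain the same direction was seen, but the call depended on the analysis. APP-PS1 brain against APP-PS1 blood gave -1.17 ± 0.31 (log2, SE) with an edgeR adjusted p = 0.0535, rank 15 of 2366. Of the 6 tested members 0 passed the threshold there, beside 0.549% of all tested genes. At an unadjusted p under 0.05 there was 1 member, beside 10.7% of genes, and DESeq2 called 1, Ets1, beside 1.94% of the genes it adjusted. DESeq2 gave Ets1 an adjusted p of 0.0172, and edgeR with RLE size factors gave 0.0472; without blood replicate 2 it was 0.0244 and without blood replicate 3 it was 0.321. WT brain against WT blood gave -0.80 ± 0.24 (adjusted p = 0.123, rank 34). There 0 members were called by edgeR, beside 0.761% of all tested genes, and 0 by DESeq2, beside 1.1%. At an unadjusted p under 0.05 there were 2, Ets1 and Ikzf2, beside 7.27% of genes. Ikzf2 passed the expression filter only through WT brain libraries, so its p-value is biased here. The difference between the strains' brain against blood changes of Ets1 was -0.37 ± 0.39 (95% interval -1.14 to 0.40; adjusted p = 0.999), so the data did not resolve whether they differ.

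Fli1, known in mouse CD8 T cells to restrain effector differentiation, was the second most abundant member in counts and did not follow Ets1. In APP-PS1 brain it had 579, 597, 604 and 423 CPM. In APP-PS1 blood it had 333, 151 and 462 CPM, so brain exceeded blood apart from brain replicate 4, which lay under blood replicate 3. In WT brain the values were 163, 406, 704, 379 and 501 CPM. WT blood had 349, 348, 446, 399 and 481 CPM, inside the WT brain range. The fitted log2 change was 0.79 ± 0.40 in APP-PS1 (adjusted p = 0.466) and 0.00 ± 0.29 in WT (adjusted p = 1). Their difference, 0.79 ± 0.49 (95% interval -0.18 to 1.75), was not called by edgeR.

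Ets1 and Fli1 are chromosomal neighbours. On GRCm38, Ets1 spans 32636221 to 32757820 of chromosome 9 on the plus strand and Fli1 spans 32422204 to 32542861 on the minus strand. The interval between them is 93.4 kb and holds 2 annotated genes, 0 of them protein coding. Because a ratio of counts within a library does not depend on the library total, the pair was also compared as Ets1 counts per Fli1 count. In APP-PS1 brain this ratio was 1.31, 1.12, 0.853 and 1.17. In APP-PS1 blood it was 4.54, 4.86 and 3.89, with no overlap between the groups. WT brain had 4.42, 1.86, 1.22, 1.44 and 1.13. WT blood had 2.53, 4.00, 3.43, 2.64 and 1.82, and here the groups overlapped. WT brain replicate 1, the high value, rests on 12 Fli1 counts, and replicate 2 at 1.86 lay just above the lowest WT blood value; the other 3 WT brain libraries were below all WT blood libraries. The blood values of APP-PS1 rest on 7 to 19 Fli1 counts each. This ratio was computed after the levels of both genes were known and has no test. How many other gene pairs separate APP-PS1 brain from APP-PS1 blood in this way was not computed. The lack of overlap there is therefore a description of these few libraries only.

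**Figure D2:**
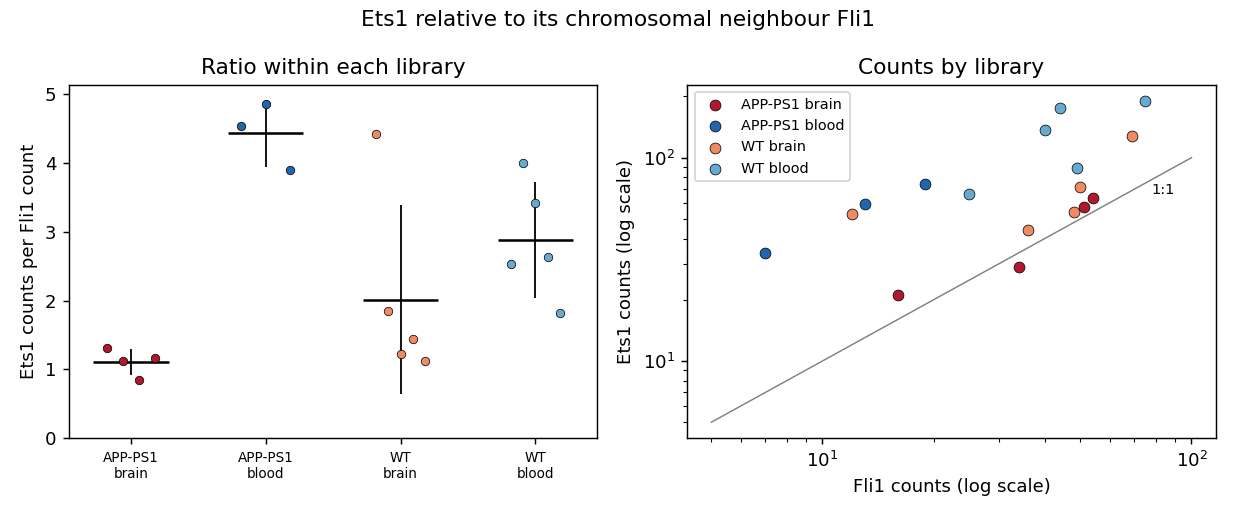
Left, Ets1 counts per Fli1 count in each library, with group means and 1 SD, for APP-PS1 brain, APP-PS1 blood, WT brain and WT blood; right, Ets1 counts against Fli1 counts per library on log axes with the line of equal counts. APP-PS1 brain lies near the line (0.853 to 1.31) and APP-PS1 blood lies well above it (3.89 to 4.86), with WT brain replicate 1 at 4.42 apart from the other WT brain libraries.

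Elf1 and Elf4 complete the ETS members. Elf1, which binds the promoter of the T cell receptor zeta chain gene Cd247, lies on chromosome 14 (79481194 to 79582494). It had 181, 152, 196 and 227 CPM in APP-PS1 brain and 205, 151 and 97.3 CPM in APP-PS1 blood. In WT brain it had 136, 165, 97.7, 341 and 219 CPM, and in WT blood 186, 237, 245, 47.9 and 108 CPM. The groups overlapped in every comparison, and the brain against blood changes were 0.34 ± 0.54 in APP-PS1 and 0.15 ± 0.38 in WT (log2, SE; adjusted p = 0.9 and 0.978 by edgeR). Cd247 itself was tested and not called in any comparison.

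Elf4 is known in mice to keep CD8 T cells quiescent. It lies on chromosome X (48411046 to 48463132) and was near the detection limit. Of its 66 counts, 16 came from APP-PS1 brain replicate 4, and in 4 of 17 libraries it had 0. Group means were 43.1 ± 56.7 CPM in APP-PS1 brain (n = 4), 42.7 ± 73.9 CPM in APP-PS1 blood (n = 3), 46.4 ± 23.3 CPM in WT brain and 22.7 ± 18.3 CPM in WT blood (SD, n = 5 each). In the fit with the lower filter, over 10167 genes, the brain against blood change was 0.57 ± 1.08 in APP-PS1 and 0.76 ± 0.81 in WT (log2, SE; adjusted p = 0.907 and 0.951). The intervals, -1.55 to 2.69 and -0.83 to 2.34, are wide at this depth and span 0.

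Among the Ikaros members, Ikzf3 (Aiolos; chromosome 11, 98464902 to 98546031) was the most counted. It had 181, 140, 124 and 211 CPM in APP-PS1 brain, and 76.8, 108 and 292 CPM in APP-PS1 blood. It had 367, 218, 137, 296 and 73.0 CPM in WT brain, against 144, 94.9, 156, 95.8 and 128 CPM in WT blood. Brain replicates 1, 2 and 4 of WT exceeded all WT blood libraries and brain replicate 5 was below them all. The WT change was 0.74 ± 0.40 (log2, SE; adjusted p = 0.752) and that of APP-PS1 was 0.05 ± 0.56 (adjusted p = 0.985).

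Ikzf1 (Ikaros; chromosome 11, 11685003 to 11772926), the founding gene of the family, needed for lymphocyte development, overlapped between the groups in every comparison. It had 0, 176, 88.9 and 125 CPM in APP-PS1 brain, where the 0 is the shallowest library, and 230, 43.2 and 97.3 CPM in APP-PS1 blood. In WT brain it had 109, 218, 58.6, 114 and 146 CPM, and in WT blood 116, 86.99, 145, 63.9 and 128 CPM. The brain against blood changes were -0.09 ± 0.66 in APP-PS1 and 0.24 ± 0.46 in WT (log2, SE; adjusted p = 0.973 and 0.976). The first of these changed sign without the 2 libraries that stood apart (0.91, adjusted p = 0.768).

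Ikzf2 (Helios; chromosome 1, 69531214 to 69687245) is best known from regulatory T cells and from subsets of CD8 T cells. Its levels were uneven within groups. In WT brain it had 354, 135, 19.5, 53.1 and 136 CPM. In WT blood it had 41.9, 94.9, 33.4, 0 and 9.8 CPM, so 3 of 5 WT brain libraries exceeded every WT blood library. APP-PS1 brain had 0, 11.7, 35.6 and 86.1 CPM, and APP-PS1 blood 51.2, 21.6 and 24.3 CPM. Of 113 counts, 70 came from WT brain, 26 of them from replicate 1.

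For Ikzf2, the WT brain against WT blood change was 1.76 ± 0.69 (log2, SE; unadjusted p = 0.0136, adjusted p = 0.382 by edgeR). APP-PS1 brain against WT brain gave -1.77 ± 0.78 (unadjusted p = 0.0277, adjusted p = 0.999). Neither passed the threshold, and the second comparison shares its WT brain libraries with the first. Ikzf2 passed the expression filter, about 117 CPM in at least 3 libraries, only through WT brain replicates 1, 2 and 5. Both comparisons involve that group, so this selection biases their p-values, which serve as description only. The 95% interval of the second ran from -3.30 to -0.23. Leaving out each library moved it between -2.92 and -1.41. The markers of CD4 and regulatory T cells were scarce in those libraries: their sum was 0 to 35.1 CPM in APP-PS1 brain and 0 to 78.2 CPM in WT brain, with Foxp3, Cd4 and Ctla4 at 0 in both.

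**Figure D3:**
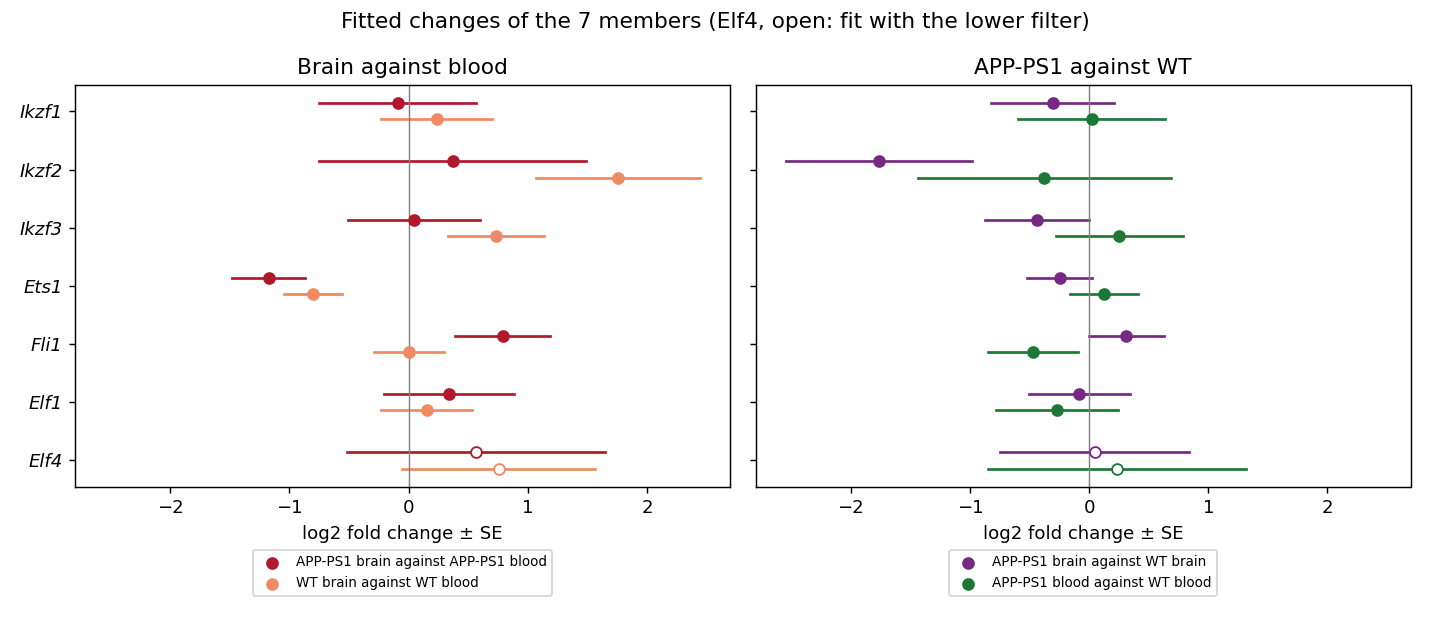
Fitted log2 fold changes with SE of the 7 genes, for brain against blood in each strain (left) and for APP-PS1 against WT in each tissue (right); Elf4, drawn open, comes from the fit with the lower filter. Ets1 lies left of 0 in both strains on the left (-1.17 in APP-PS1 and -0.80 in WT), and the bars of Ikzf2 and Elf4 are wide, with SE of 0.69 to 1.12 and 0.79 to 1.08.

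Between strains no member was called. In APP-PS1 brain against WT brain, 0 of 6 tested members and 0% of all tested genes were called by edgeR, and likewise by DESeq2. At an unadjusted p under 0.05 there was 1 member, Ikzf2, which passed the expression filter only through WT brain libraries, beside 4.14% of genes. In APP-PS1 blood against WT blood, 0 of 6 were called by edgeR and by DESeq2, beside 0.0423% of all tested genes with either tool, the gene being Ccr7 in both. Ccr7 passed the expression filter only with the APP-PS1 blood libraries, so its p-value is biased here. At an unadjusted p under 0.05 there were 0 members, beside 8.03% of genes. Ets1 changed by -0.25 ± 0.27 in brain and 0.12 ± 0.28 in blood (log2, SE), with intervals of -0.78 to 0.29 and -0.43 to 0.68. The sign in blood turned with the lower filter (-0.13). For the difference of the tissue changes between strains, 0 of 6 members were called by edgeR, beside 0.0423% of all tested genes, and 0 by DESeq2, beside 0%. There were 0 at an unadjusted p under 0.05, beside 4.95% of genes.

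Counts do not compare levels between genes of unequal length, so CPM per kilobase of annotated exon was also computed. On that scale Fli1 led in brain, with 158 ± 24.7 in APP-PS1 brain and 124 ± 56.3 in WT brain, against 71.8 ± 15.0 and 81.3 ± 15.7 for Ets1 (SD, n = 4 and 5). In blood Ets1 led, with 159 ± 65.1 in APP-PS1 and 135 ± 35.2 in WT, against 90.5 ± 44.8 and 116 ± 16.9 for Fli1 (SD, n = 3 and 5). Fli1 exceeded Ets1 in 4 of 4 APP-PS1 brain libraries and 4 of 5 WT brain libraries. Ets1 exceeded Fli1 in 3 of 3 APP-PS1 blood libraries and 4 of 5 WT blood libraries. Elf1 came next in every group, at 22.4 to 28.5 CPM per kilobase. Its lead over the gene below it was within the spread except in APP-PS1 brain, where it stood at 28.04 ± 4.63 against 18.8 ± 4.50 for Ikzf3 (SD, n = 4) and was higher in 4 of 4 libraries. The means of Ikzf3 and Ikzf1 differed by less than the larger SD in every group, although Ikzf1 was the higher in 5 of 5 WT blood libraries. Ikzf2 and Elf4 were lowest, between 2.79 and 12.0. Exon lengths count all annotated exons of GENCODE M21, 8476 bases for Ets1 and 3486 for Fli1, which need not be the transcripts these cells use. The transcripts whose sequences were compared above have 5080 bases for Ets1 and 3318 for Fli1. The lead of Fli1 over Ets1 in WT brain depends on which length is used and does not hold with the transcript lengths.

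The wider families were sparse. Of 5 Ikaros family genes all had counts and 3 were tested. Of 26 listed ETS genes, 16 had counts and 5 were tested: Ets1, Fli1, Elf1, Elf2 and Elk4. Those at 0 included Spi1 and Spib, the ETS factors of myeloid and B cells, and Erg of endothelium. Elf2, a close relative of Elf1, had 160 counts and Elk4, a partner of serum response factor, had 105. Neither was called in any comparison. Elf2 averaged 145 ± 137 CPM in APP-PS1 brain (n = 4), 239 ± 37.1 CPM in APP-PS1 blood (n = 3), 91.2 ± 46.9 CPM in WT brain and 68.8 ± 32.3 CPM in WT blood (SD, n = 5 each). All 3 APP-PS1 blood libraries, from 216 to 282 CPM, lay above the WT blood libraries, which reached 98.2 CPM, as they did for 3.25% of all tested genes. The fitted change was 1.61 ± 0.59 (log2, SE; edgeR adjusted p = 0.429).

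**Figure D4:**
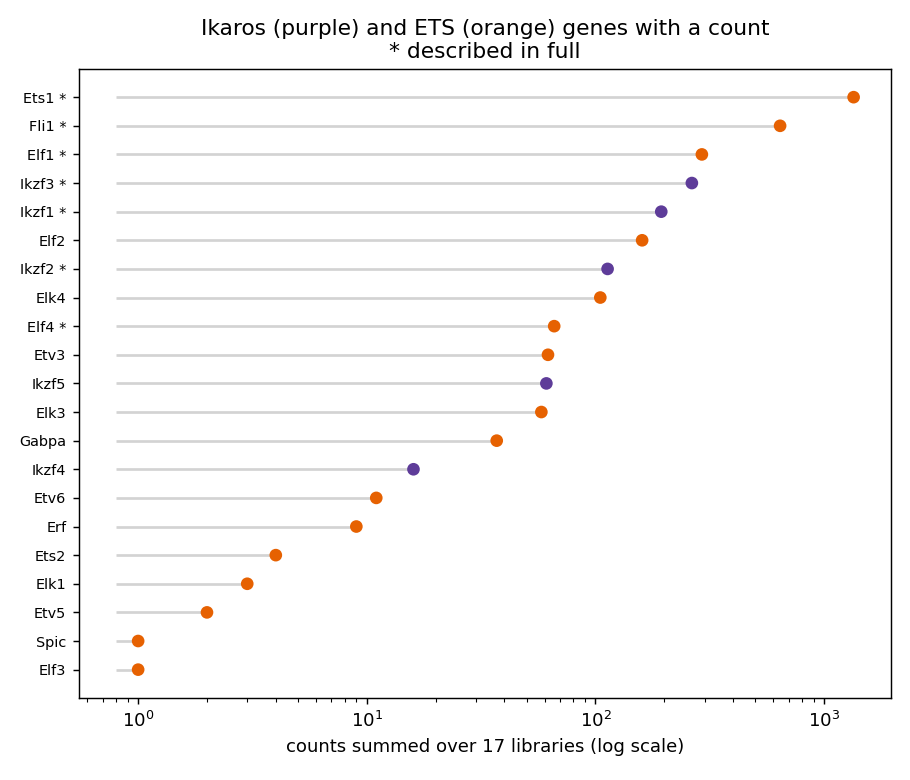
Counts summed over the 17 libraries for every Ikaros (purple) and ETS (orange) gene with at least 1 count, on a log axis, with the 7 genes described in full marked by a star. Ets1 (1346) and Fli1 (642) stand above the rest, and Elf2 (160) and Elk4 (105) are the most counted genes outside the 7.

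The remaining family genes were all below the filter. Etv3, a repressor, had 62 counts, Ikzf5 (Pegasus) 61, Elk3 58, Gabpa 37 and Ikzf4 (Eos) 16. Etv6 had 11 counts, Erf 9, Ets2 4, Elk1 3, Etv5 2, Elf3 1 and Spic 1. Gabpa encodes the DNA-binding subunit of GABP, which in mouse T cells controls Il7r.

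Genes of proteins that act with these factors were also examined. The list held 24 genes: the Runx factors and their partner Cbfb, the GABP beta subunits, and subunits of the nucleosome remodelling and deacetylase, Sin3 and CtBP complexes, Smarca4 and Crbn. All 24 had counts and 14 were tested. In every comparison 0 of the 14 were called by edgeR and 0 by DESeq2, beside shares of all tested genes that reached 2.62% by edgeR and 3.04% by DESeq2, both in the averaged contrast. At an unadjusted p under 0.05 there was 1 of 14 in APP-PS1 brain against blood (10.7% of all tested genes), 1 in APP-PS1 against WT blood (8.03%) and 1 in the averaged contrast (13.4%), and there were 0 in the other comparisons (4.14% to 7.27%). These counts do not set the list apart from all tested genes. The median log2 change over the 14 was 0.04 in APP-PS1 and 0.12 in WT for brain against blood, beside 0.03 and 0.02 over all tested genes. Runx3, which sets the CD8 lineage and residency in tissue, had the most counts of the list over the 17 libraries, with a mean of 163 ± 58.8 CPM in APP-PS1 brain (n = 4), 74.2 ± 53.2 CPM in APP-PS1 blood (n = 3), 260.5 ± 89.8 CPM in WT brain and 165 ± 63.3 CPM in WT blood (SD, n = 5 each). Its changes were 1.15 ± 0.62 in APP-PS1 and 0.59 ± 0.37 in WT (log2, SE; adjusted p = 0.518 and 0.776).

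Genes reported elsewhere as targets or candidate targets of these factors in T cells were taken from general knowledge. The list was drawn up with earlier results of these data known. Genes already seen to change could enter it, so the counts and shares below describe the list and do not test it. Of the 21 listed target genes 17 were tested. In the averaged contrast 4 fell in brain (Klf2, Ccr7, S1pr1 and Tcf7), 1 rose (Cd3g) and 12 were not called, while 1.35% of all tested genes fell and 1.27% rose. Ccr7 and S1pr1 passed the expression filter only with a blood group in which they were high, so their p-values are biased. The genes that fell are known for quiescence and for recirculation through lymph nodes: Klf2 is a factor that induces S1pr1, S1pr1 is the receptor for egress, Ccr7 serves lymph node entry, and Tcf7 encodes TCF1 of naive and memory cells. In APP-PS1, 2 fell (Klf2 and Ccr7), and in WT, 2 fell (Klf2 and S1pr1), while 0.338% and 0.549% of all tested genes fell in those comparisons. These calls are by edgeR. DESeq2 called 1 listed target in APP-PS1, 2 in WT and 5 in the averaged contrast. Beside them, it called 1.94%, 1.1% and 3.04% of the genes it adjusted. The median log2 change over the 17 was 0.08 in APP-PS1 and -0.23 in WT, and the same medians over all genes were 0.03 and 0.02. Counts alone say nothing of which factor acts on these genes.

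Klf2 was called in both strains. It averaged 218 ± 202 CPM in APP-PS1 brain (n = 4) and 1354 ± 279 CPM in APP-PS1 blood (n = 3), and 142 ± 34.0 CPM in WT brain and 772 ± 269 CPM in WT blood (SD, n = 5 each). The log2 changes were -2.88 ± 0.40 and -2.46 ± 0.33 (SE; edgeR adjusted p = 2.04e-06 and 1.29e-06). Ccr7 averaged 24.8 ± 12.9 CPM in APP-PS1 brain and 503 ± 119 CPM in APP-PS1 blood, and 19.2 ± 7.51 CPM in WT brain and 79.0 ± 38.0 CPM in WT blood. Its brain against blood change was -4.47 ± 0.68 in APP-PS1 and -1.95 ± 0.58 in WT (log2, SE; adjusted p = 1.21e-05 and 0.106), and it was higher in APP-PS1 blood than in WT blood by 2.54 ± 0.51 (adjusted p = 0.0169). Ccr7 passed the expression filter only with the APP-PS1 blood libraries, where it was high. This selection biases its p-values in every comparison that uses that group. The blood call did not hold with sex as a term, thinned to equal depth or without the 2 libraries that stood apart, where 0 genes were called. It was also lost with no filter or the lower filter, without any 1 of the 3 APP-PS1 blood libraries, and without WT blood replicate 1, 2, 3 or 5, where 0 genes were higher. For S1pr1 the summed counts were 3 over APP-PS1 brain, 6 over APP-PS1 blood, 6 over WT brain and 71 over WT blood, and its WT change was -3.59 ± 0.85 (adjusted p = 0.0151). S1pr1 passed the expression filter only through WT blood libraries, where it was high, so this p-value is biased. Cd3g, a chain of the T cell receptor complex, averaged 1533 ± 161 CPM in APP-PS1 brain and 844 ± 134 CPM in APP-PS1 blood, and 1774 ± 396 CPM in WT brain and 1250 ± 339 CPM in WT blood; averaged over strains it rose by 0.65 ± 0.19 (log2, SE; adjusted p = 0.0402).

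**Figure D5:**
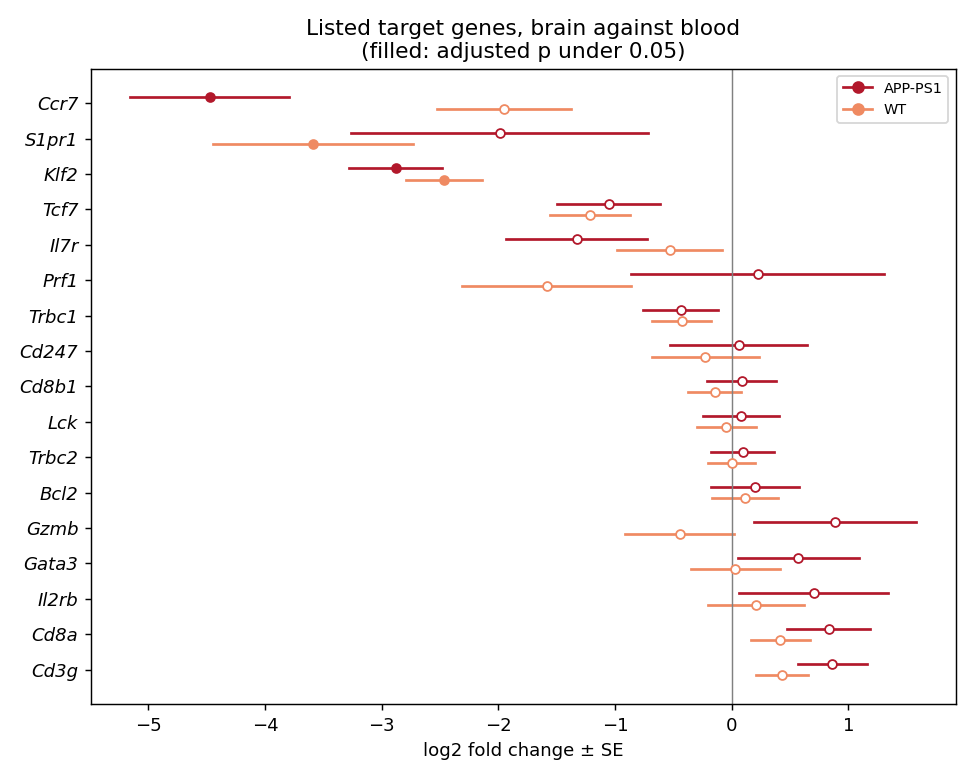
Log2 fold changes with SE of the 17 tested target genes for brain against blood, APP-PS1 above WT in each row; filled points passed an adjusted p of 0.05 within that strain. Ccr7, S1pr1, Klf2 and Tcf7 lie left of 0 in both strains, while Lck, Trbc2 and Cd8b1 lie near 0 and Cd3g and Cd8a lie right of it.

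Promoter sequences were available for 3 of the members (Ikzf1, Elf1 and Elf4) and for 3 of the 5 target genes called in the averaged contrast (Klf2, Cd3g and Tcf7). The 250 bases upstream of each start were searched on both strands for the ETS core CCGGAA and for GGGAA, which overlaps Ikaros sites. Over 32851 promoters, 12% of such windows held CCGGAA and 56.2% held GGGAA. The windows of the 3 members did not hold the ETS core. A listed target that was not called held 1 match, in a window that also ran 50 bases past the start. Among the called targets, 1 of 2 Tcf7 windows held the ETS core and those of Klf2 and Cd3g did not. That window, 1 with an ETS core match and 4 GGGAA matches, is shown from RefSeq (GRCm38.p6, chr11:52282596-52282845, minus strand) because Tcf7 is the called target with a match. The window lies inside the annotated Tcf7 gene (52252371 to 52283014), before an inner start. The other Tcf7 window, before the outer start, held 0 ETS core matches and 1 GGGAA match. The match is in capitals, on the opposite strand. A match describes letters in this window and not binding.
Tcf7: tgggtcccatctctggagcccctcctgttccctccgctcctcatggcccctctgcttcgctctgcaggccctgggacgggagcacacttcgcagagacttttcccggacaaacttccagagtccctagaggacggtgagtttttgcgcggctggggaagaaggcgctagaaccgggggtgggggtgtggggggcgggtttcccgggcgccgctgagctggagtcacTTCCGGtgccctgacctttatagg
Tcf7 itself averaged 196 ± 76.8 CPM in APP-PS1 brain (n = 4) and 433 ± 126 CPM in APP-PS1 blood (n = 3), against 182 ± 61.7 CPM in WT brain and 409 ± 188 CPM in WT blood (SD, n = 5 each). The averaged change of Tcf7 in brain against blood was -1.13 ± 0.28 (log2, SE; edgeR adjusted p = 0.0109).

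The genes whose levels were most like each tested member were found by Pearson's r of log2 CPM over the 17 libraries, which share tissue and depth differences. For Ets1 these were Klf3 (r = 0.77), Klf2 (0.76) and Add3 (0.76). Within the 9 brain libraries the same r values were 0.22, 0.44 and 0.39, and within the 8 blood libraries 0.07, -0.13 and 0.60, so the likeness to Klf3 and Klf2 came mostly from the step between tissues. For Fli1 the nearest were Rchy1 (0.76), Adipor2 (0.74) and Pcca (0.73). For Elf1 they were Trgv2 (0.77), Snx3 (0.77) and Gimap3 (0.77). Ikzf1 was nearest to Gimap8 (0.85), Med30 (0.84) and Atp2a3 (0.80), Ikzf2 to Celf2 (0.78), Gm12374 (0.76) and Trip4 (0.76), and Ikzf3 to Celf2 (0.68), Keap1 (0.66) and Eml4 (0.65). Several of these neighbours averaged fewer than 10 counts a library, so their likeness rests on sparse counts. Between the members, the highest r over the 17 libraries was 0.47, for Ikzf1 and Ikzf2. Within the 9 brain libraries r ran from -0.84 (Ets1 and Elf1) to 0.59 (Ikzf1 and Ikzf2). Within the 8 blood libraries it ran from -0.23 (Elf1 and Fli1) to 0.86 (Ikzf2 and Elf1).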

How the data were processed

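The 17 libraries hold RNA sequencing of CD8+ T cells from brain and blood. The authors deposited raw counts per gene, in whole numbers and without any normalization. Tools named in the submitters' processing notes are FastQC, Bowtie2 (2.2.2), HTSeq (0.11.2) and DESeq2, and the build is GRCm38; their roles and order are not stated. The strand setting, annotation release and any molecular identifiers were not given in the sources used here. Groups follow the labels. Chi-square tests between the 29 pairs of libraries in the same group gave 2.59 to 5.69 per degree of freedom, and 0 pairs were identical.

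The main test was edgeR (4.0.16, R 4.3.3) with TMM factors, filterByExpr (about 117 CPM in at least 3 libraries) and robust quasi-likelihood fits of 1 mean for each of the 4 groups. P-values were adjusted by Benjamini-Hochberg over 2366 genes, and a gene was called when its adjusted p was under 0.05. The common biological coefficient of variation was 0.370. The steps were tested on simulated data. The members and gene lists were chosen with earlier results of these data known. Of 136 listed symbols 135 matched, and Itgam was not analysed here. Another gene of the target list is not reported here, and the counts of that list leave it out. Genes named are the members, family genes with a count, called or abundant genes of the other lists, and the 3 genes most like each tested member. Alternatives were RLE size factors, DESeq2 (1.42.0), no filter, a filter of 5 CPM in 3 libraries, a fit of the compared groups alone, sex as a covariate, thinning of every library to 27646 counts, and leaving out each library. Leaving out 2 libraries that stood apart was added after seeing the data. Gene models came from GENCODE M21. Figures were drawn with matplotlib 3.10.9.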

Additional observations from a re-analysis of the deposited data

Results flagged for a closer look

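Fli1 in APP-PS1 brain replicate 4 had 423 CPM and lay apart from the other 3 APP-PS1 brain libraries, the nearest of which had 579 CPM. This library is the female one of its group. The Ets1 to Fli1 count ratio of WT brain replicate 1 was 4.42, against 1.86 for the nearest other WT brain library, with 12 Fli1 counts behind it. In all, 24 groups of values were examined for such samples, and chance gives about 1 in 20.

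Igkc, the immunoglobulin kappa constant gene listed as a B cell marker, was the 1 gene whose brain against blood change differed between strains, by 5.56 on the log2 scale (SE 1.09; edgeR adjusted p = 0.0104). This call was lost with DESeq2, when thinned, without the 2 libraries that stood apart, without APP-PS1 brain replicate 2 and without APP-PS1 blood replicate 1, each of which called 0 genes. It averaged 176 ± 214 CPM in APP-PS1 brain (n = 4) and 15.3 ± 13.3 CPM in APP-PS1 blood (n = 3, resting on 2 counts), and 49.4 ± 21.8 CPM in WT brain and 206 ± 83.7 CPM in WT blood (SD, n = 5 each). Its part in the levels of the 7 genes was not tested.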

How the results depend on the processing

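Over the alternatives, 779 member fold changes kept their direction and their side of the threshold, 52 changed sign and 5, all of Ets1 in APP-PS1 brain against APP-PS1 blood, became called; the cause was not tested. No paired analysis was possible because no label pairs brain and blood libraries, and replicate numbers follow accession order. The count of members called in APP-PS1 brain against blood was 1 with RLE and with DESeq2, and 0 to 1 leaving out each library; the 1 called in the averaged contrast remained Ets1 under every alternative. Genes called in that APP-PS1 comparison numbered 21 with DESeq2 and 8 to 22 leaving out each library. Those in APP-PS1 blood against WT blood numbered 5 with no filter, 7 at 5 CPM, 4 with only the groups compared, 0 thinned, 0 with sex as a term, 0 without the 2 libraries that stood apart and 0 to 3 leaving out each library. The averaged contrast gave 24 genes thinned. The difference between strains gave 0 with DESeq2, 0 thinned, 0 without the 2 libraries and 0 to 1 leaving out each library.

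The signs that turned were these. With no filter and at 5 CPM, Fli1 in WT brain against blood was -0.055 and -0.030, Ikzf1 in APP-PS1 brain against blood was 0.071 and 0.083, and in APP-PS1 against WT blood Ets1 was -0.14 and -0.13, Ikzf3 -0.029 and -0.023, and Ikzf1 -0.26 and -0.25. With sex as a term, Ikzf3 in APP-PS1 against WT brain was 0.25 (-0.44 without it) and Ikzf2 in APP-PS1 against WT blood was 0.53 (-0.38 without it). Without the 2 libraries, Fli1 in WT was -0.031, Ikzf3 and Ikzf1 in APP-PS1 brain against blood were -0.28 and 0.91, Ikzf1 in APP-PS1 against WT blood was -0.73, and its difference between strains was 0.70.

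Leaving out each library gave these ranges. In WT brain against blood they were -0.075 to 0.37 for Ikzf1, -0.22 to 0.19 for Fli1 and -0.15 to 0.29 for Elf1. In APP-PS1 brain against blood they were -0.45 to 0.63 for Ikzf1, -0.30 to 0.85 for Ikzf3 and -0.81 to 0.78 for Ikzf2. In APP-PS1 against WT brain they were -0.63 to 0.016 for Ikzf1 and -0.20 to 0.24 for Elf1. In APP-PS1 against WT blood they were -0.69 to 0.36 for Ikzf1, -0.77 to 0.26 for Ikzf2, -0.23 to 0.35 for Ets1 and -0.57 to 0.60 for Ikzf3. The averaged Ikzf1 change ran from -0.12 to 0.43, and the difference between strains from -0.69 to 0.40 for Ikzf1 and -1.02 to 0.14 for Ikzf3. Thinning moved the mean of Ikzf3 in WT blood to 152 CPM, against 124 CPM. Depth limits the precision: Ets1 had 167 to 658 counts per group, and the other members 4 to 233.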
